A study of Mus musculus with 4 samples.

Results

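Among 4340 single cells sorted from mouse bone marrow as short-term hematopoietic stem cells (ST-HSC), 104 carried RNA of the myeloid genes Mpo or Cebpa and little or none of the neutrophil genes S100a8 and S100a9. They were chosen as myeloid-primed cells, but their values go against a single name, since a few carried many granule, monocyte or basophil transcripts and in the others no myeloid transcription factor passed the test against reference cells. They are therefore called members, by their rule. A cell was a member if it had 2 or more unique molecular identifiers (UMIs, one per captured RNA molecule) summed over Mpo and Cebpa, and fewer than 5 UMIs summed over S100a8 and S100a9, a pair of abundant neutrophil transcripts. Mouse 1 gave 69 members of 2633 kept ST-HSC cells and mouse 2 gave 35 of 1707, and the whole series held 5579 kept cells. Kept cells had 1000 or more genes, 2000 or more UMIs and at most 10% of UMIs from mitochondrial genes.

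The series profiled phenotypic long-term HSCs (LT-HSC) and ST-HSCs in 4 libraries, 1 of each gate from each of 2 male mice aged 14 weeks, all of the strain labelled Tie2-bG-Micm x RosaYFP and with no treatment named in the labels. Both gates took cells without lineage markers and CD48 and with Kit and Sca1. LT-HSCs carried CD150 and ST-HSCs lacked it. Libraries were made with the 10x Chromium Single Cell 3′ v3 kit. Kept cells held 115305 UMIs in the LT-HSC library of mouse 1, which had only 22 kept cells, and between 13249904 and 27870823 UMIs in the other libraries. 1 kept barcode was shared by both ST-HSC libraries, and 1 by the LT-HSC and ST-HSC libraries of mouse 2. Each class of cells was summed within a library, so each comparison rests on 2 mice.

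Cebpa encodes C/EBPα, a transcription factor required for the step from multipotent progenitors to granulocyte and monocyte progenitors. Mpo encodes myeloperoxidase, and Prtn3, Elane and Ctsg encode proteinase 3, neutrophil elastase and cathepsin G, all of them enzymes of the azurophil (primary) granules that form at the promyelocyte stage. Multipotent stem and progenitor cells are known to carry low levels of lineage genes before commitment, which is called priming.

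Prtn3 and Elane lie next to each other on chromosome 10, at chr10:79874476-79883174 and chr10:79886247-79888215 on the plus strand (mm10, GENCODE vM21), with 3073 bases between the end of the first and the start of the second. Their upstream sequences are shown because these neighbours were counted very differently in the same cells. Prtn3 had a UMI in nearly every ST-HSC cell, and Elane in very few. The windows run from 250 to 66 bases before each RefSeq start (GRCm38.p6), chr10:79879417-79879601 for Prtn3, which lies within the longer GENCODE gene, and chr10:79886062-79886246 for Elane. Capitals mark GAGGAA, a purine-rich ETS-type motif searched on both strands (TTCCTC on the other).
Prtn3: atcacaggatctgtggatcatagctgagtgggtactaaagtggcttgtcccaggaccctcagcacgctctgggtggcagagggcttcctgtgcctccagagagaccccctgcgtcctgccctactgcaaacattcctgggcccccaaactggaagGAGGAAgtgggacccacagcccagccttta
Elane: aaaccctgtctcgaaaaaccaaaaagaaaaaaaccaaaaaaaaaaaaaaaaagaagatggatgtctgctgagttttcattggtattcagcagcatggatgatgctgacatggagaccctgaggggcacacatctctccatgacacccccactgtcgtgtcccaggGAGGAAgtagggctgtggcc
Each window held 1 match, 95 bases before the start in Prtn3 and 85 bases before it in Elane. Of 32851 RefSeq windows of the same 185 bases, 17.6% held a match. A C/EBP-type motif, TTGCNNAA or TTNNGCAA, had 0 matches in either window and was found in 7.62% of all windows. The motifs do not overlap each other.

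The rule genes describe how thin the evidence per cell was. Mpo lies at chr11:87793581-87804413 and Cebpa at chr7:35119293-35121928. Of the 104 members, 77 had exactly 2 UMIs of the pair, 53 in mouse 1 and 24 in mouse 2. Just outside the rule, 545 cells had exactly 1 UMI. The limit on S100a8 and S100a9 excluded 3 cells that had enough Mpo or Cebpa, with at least 1755 and 3038 S100a8 and S100a9 UMIs in mouse 1 and mouse 2. No member had more than 3. The gap between members and excluded neutrophils was therefore wide, whereas the lower edge of the rule lay among cells with 1 or 2 molecules.

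A few members held nearly all of the granule RNA. With marker limits chosen after the values were seen (10 Mpo UMIs, 5 Elane UMIs, or 5 UMIs over the markers of mature neutrophils, monocytes, basophils and mast cells, macrophages or erythroid cells), 9 members stood apart, 3 in mouse 1 and 6 in mouse 2. They held 799 of the 894 Mpo UMIs, 1032 of 1038 Elane UMIs, 775 of 778 Ctsg UMIs and 1015 of 1504 Prtn3 UMIs, but only 45 of 171 Cebpa UMIs. They contributed 9.23% of the members' UMIs in mouse 1 and 28.9% in mouse 2.

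The 9 cells were not of 1 kind. The cell with most Mpo, in mouse 2, had 410 Mpo, 682 Elane, 300 Prtn3 and 326 Ctsg UMIs. Another of mouse 2 had 161 Mpo and 105 Elane UMIs together with 102 UMIs of Ly6c2, a monocyte surface gene, and 1 of mouse 1 had 160 Mpo, 244 Elane and 181 Ly6c2 UMIs with 54 of Irf8, a monocyte and dendritic cell factor. These 3 cells combined granule and monocyte transcripts. In each mouse 1 cell was led by basophil protease genes, with 228 Prss34 and 91 Mcpt8 UMIs beside 6 of Cebpa in mouse 1, and 610 Prss34 and 351 Mcpt8 UMIs beside 26 of Mpo and 10 of Cebpa in mouse 2. A shallow cell of mouse 2, with 3256 UMIs, had 8 Cebpa UMIs and 6 of Fcer1a, the IgE receptor chain of basophils and mast cells. Kit, a gene of the sorting gate, had 0 UMIs in the cells with most Prss34 and between 1 and 6 in 5 of the 9 cells.

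The remaining 95 members (66 and 29) were cells with a trace of myeloid RNA. Of these, 23 had Mpo alone, 41 had Cebpa alone and 31 had both, and 76 had exactly 2 UMIs of the pair, 13 had 3 and 6 had 4 or more. Prtn3 was found in 98.5% of them in mouse 1 and 100% in mouse 2. Low levels of monocyte, basophil and mature neutrophil markers follow in part from the limits that defined them. Over the 5 mature neutrophil markers (Camp, Ngp, Ltf, Lcn2, Retnlg) they held 3 UMIs in mouse 1 and 0 in mouse 2. By the rule each of them carried Mpo or Cebpa, and most did not carry both. Nearly all carried Prtn3, but so did reference cells, at a close level. Ctsg, the last marker of the label, was nearly absent from them, at 2.32 and 3.36 counts per 1e+06 UMIs (CPM).

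**Figure D1:**
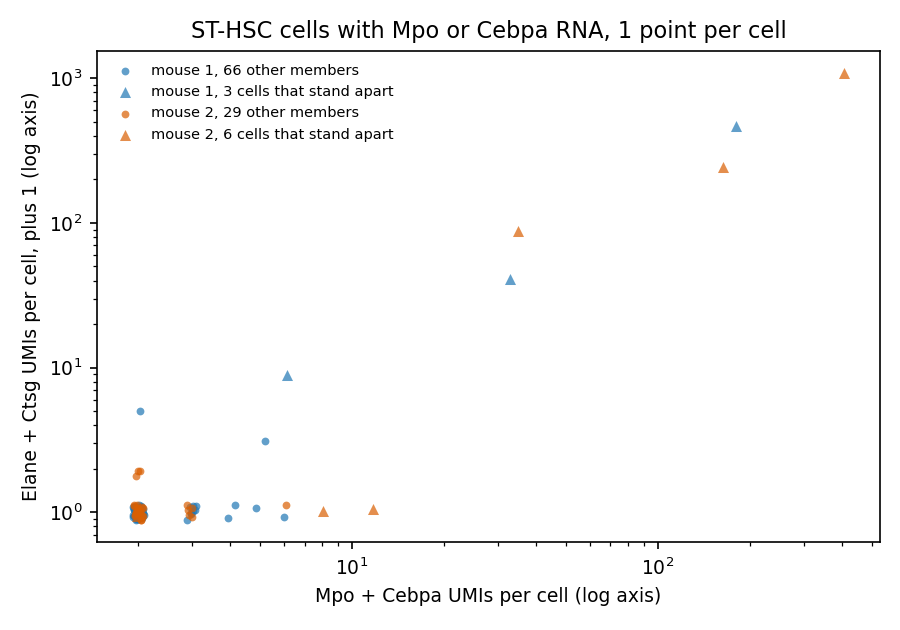
Each point is 1 of the 104 members, with its summed Mpo and Cebpa UMIs on the x axis (log) and its summed Elane and Ctsg UMIs plus 1 on the y axis (log); colours give the mouse and triangles the 9 cells that stand apart. Most points lie at 2 Mpo and Cebpa UMIs with no Elane or Ctsg, a little jitter separates equal values, and 5 triangles with more than 30 Mpo and Cebpa UMIs lie far up and to the right.

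The share of cells meeting the rule was similar in both ST-HSC libraries and lower in LT-HSCs. It was 2.62% in mouse 1 (exact binomial 95% interval 2.04% to 3.30%) and 2.05% in mouse 2 (1.43% to 2.84%). In the LT-HSC library of mouse 2, 2 of 1217 cells met the same limits, 0.164% (0.0199% to 0.592%), although its cells were deeper, with a median of 10367 UMIs against 7504 in the ST-HSC library of the same mouse. The LT-HSC library of mouse 1 had 0 of 22, for which 3 counts would be 13.6%, so it was uninformative. These intervals cover counting error only, and with 2 libraries per gate no exact test could reach 0.05.

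The share depended on depth. With each cell thinned to 5000 UMIs and shallower cells left out (69, 117 and 71 cells in ST-HSC mouse 1, ST-HSC mouse 2 and LT-HSC mouse 2), the shares were 0.819% (21 of 2564), 0.818% (13 of 1590) and 0 of 1146 (exact upper limit 0.321%, and 0.262% if 3 counts are taken as the limit). The ST-HSC intervals, 0.508% to 1.25% and 0.436% to 1.39%, overlapped almost wholly. Free RNA in the droplets can also give single UMIs. In mouse 2, Mpo had a UMI in 4.22% of ST-HSC and 0.411% of LT-HSC cells, and Cebpa in 8.67% and 0.986%.

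**Figure D2:**
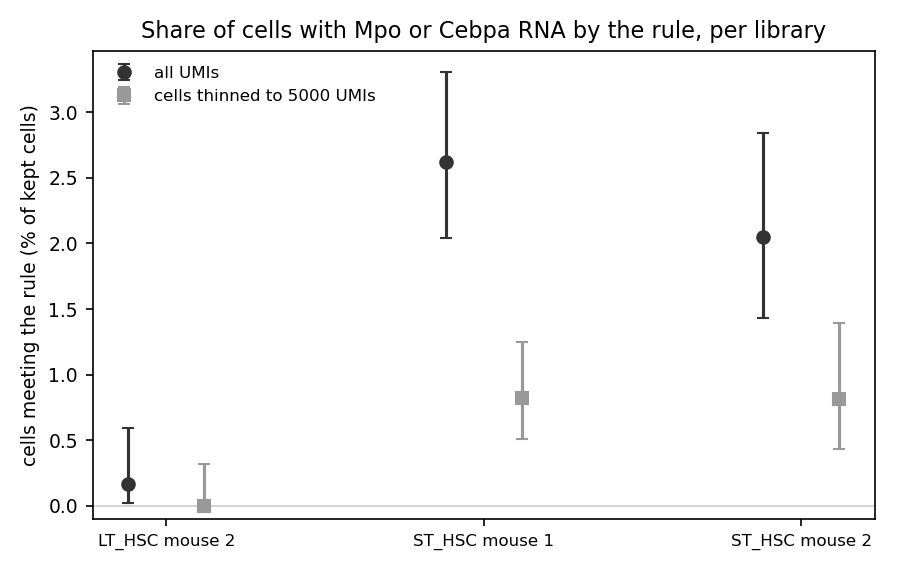
The y axis gives the share of kept cells that met the rule in each library, in percent; circles use all UMIs, squares use cells thinned to 5000 UMIs, and bars are exact binomial 95% intervals. Both ST-HSC libraries lie near 2% with all UMIs and near 0.8% after thinning, above the LT-HSC library of mouse 2; the LT-HSC library of mouse 1 is left out because it had 22 cells.

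To ask what else differed, members were set against ST-HSC cells of the same library with 0 UMIs of both genes, 3 per member matched in total UMIs (312 of 3674 eligible cells). Median depths were 11561 UMIs in members and 11554 in reference cells of mouse 1, and 10425 and 10415 in mouse 2. UMIs were summed per class and library and tested with edgeR's quasi-likelihood test with the mouse as a block, and genes were called at an adjusted p (Benjamini-Hochberg over all genes tested) under 0.05. Of 8749 genes tested, 108 were higher in members (1.23%) and 18 lower (0.206%). The 4 rule genes were left out of the test. With 4 sums each gene has 1 residual degree of freedom, so its spread was largely estimated from the other genes.

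The genes with the largest increases over all 104 members were those of the cells that stand apart. Elane was at 262.0 and 1885 CPM in the members of mouse 1 and mouse 2 and at 0.351 and 0 in reference cells. Ctsg was at 251.4 and 1288 CPM against 1.05 and 0.876. Prss34, the basophil protease, was at 239.9 and 1457 CPM against 0 and 2.63, and Ly6c2 at 190.4 and 451.6 against 0 in both. All 4 passed, but the highest single cell held 244 of 249 Elane UMIs, 228 of 228 Prss34 UMIs and 181 of 181 Ly6c2 UMIs in mouse 1.

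Grouped by role, 11 of 15 measured genes of the azurophil granule list rose over all members. They were Elane, Ctsg, Ms4a3, Prtn3, Plac8, Ap3s1, Igfbp4, Nkg7, Prss57, Serpinb1a and Srgn. Not all of them are granule enzymes. Plac8 was also on the multipotent progenitor list and Nkg7 on the T and NK cell list, and Igfbp4 encodes a growth factor binding protein. Among monocyte and dendritic genes 10 of 15 rose, and among mast cell and basophil genes 6 of 10. Of 14 myeloid transcription factors 5 rose, among them Spi1 (PU.1, a master factor of myeloid cells; log2 fold change 0.70 ± 0.14 SE, edgeR adjusted p = 0.000446) and Cebpb (0.97 ± 0.15, adjusted p = 8.27e-07). Of 22 stem cell genes 0 rose and 5 fell, namely Ltb, Apoe, Procr, Ifitm3 and Meis1. The medians of these lists, 0.88, 2.62, 2.59, 0.22 and -0.36, stood beside a median of 0.00 over all genes. In reference cells Ly6c2 and F13a1 of the monocyte list were at 0 CPM in both mice, and Mcpt8 and Prss34 of the mast cell list at 0 in mouse 1. Such genes passed the filter on low counts only through the members, so these counts and medians were in part fixed by the filter. Each count moved with the 9 cells, as the comparison without them shows.

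Without the 9 cells, and with reference cells left out by the same limits, the remaining 95 members were compared with 285 matched cells (198 and 87). Of 8357 genes, 13 were higher (0.156%) and 7 lower (0.0838%), and 555 had an unadjusted p under 0.05. Of the 126 genes called over all members, 92 could be tested here and 15 were called in the same direction. The azurophil list now had 2 of 12 genes higher, Plac8 and Igfbp4, neither of them a granule enzyme, the myeloid transcription factors 0 of 11, the monocyte list 0 of 7 and the mast cell list 0 of 5, and the limits had removed cells by some genes of the last pair of lists. Spi1, at 146.0 and 104.1 CPM against 100.5 and 103.1, had a log2 fold change of 0.42 ± 0.14 and did not pass (edgeR adjusted p = 0.341).

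Prtn3 is the plainest case. It was at 432.2 and 389.4 CPM in these members and at 401.9 and 351.9 CPM in the reference cells, with a UMI in 98.5% and 93.1% of reference cells and in 92.0% of LT-HSC cells of mouse 2. Its log2 fold change was 0.12 ± 0.09 (edgeR adjusted p = 0.896) where it had been 1.64 ± 0.10 over all 104 members. Elane stayed at 4.63 and 6.71 CPM against 0.386 and 0 and was too low to be tested. Prtn3 RNA at close to this level was thus also counted in ST-HSC cells without a UMI of Mpo or Cebpa.

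Of the 13 genes that rose in the 95 members, 4 were on the multipotent progenitor list, more than on any other list. The lists were chosen with earlier results of these data known, so counts over them here and below are descriptions and not independent support. Wfdc17, a secreted protein with a WAP domain that activated macrophages also make, was at 304.8 and 204.8 CPM in the members of mouse 1 and mouse 2 and at 76.9 and 76.2 CPM in reference cells. Members lay above the reference in both mice, by 1.86 ± 0.12 on the log2 scale (edgeR adjusted p = 1.19e-47). In mouse 2, however, another set of cells with 0 UMIs of both genes, described below, lay close to the members. Wfdc17 had a UMI in 43.9% and 44.8% of members against 31.3% and 34.5% of reference cells, and in 5.75% of LT-HSC cells of mouse 2. Wfdc17 lies at chr11:83703991-83706268.

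H2afy, which encodes the histone variant macroH2A1, was at 1747 and 2112 CPM against 1266 and 1476 (0.49 ± 0.06, edgeR adjusted p = 2.30e-15). Plac8, a small cysteine-rich protein of myeloid and lymphoid progenitors, was at 633.9 and 553.9 CPM against 410.0 and 461.8 (0.52 ± 0.08, adjusted p = 6.92e-07). Cd48, the surface protein whose absence defined both gates, was at 38.2 and 26.9 CPM against 8.50 and 15.7 (1.74 ± 0.37, adjusted p = 0.00217). It had a UMI in 30.3% and 27.6% of members and in 9.09% and 13.8% of reference cells. In each of these 3 genes both mice lay above their own reference, with the narrowest margin for Plac8 in mouse 2.

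Igfbp4, Emb and Lat2 rose as well. Igfbp4, an insulin-like growth factor binding protein, was at 192.4 and 224.9 CPM against 123.7 and 141.2. Emb, the membrane protein embigin, was at 192.4 and 251.8 CPM against 146.1 and 141.2. Lat2, a signalling adaptor of leukocytes, was at 69.5 and 87.3 CPM against 35.9 and 43.7. S100a8, which the rule kept low in both classes, had a UMI in 9.09% and 6.90% of members and in 7.07% and 6.90% of reference cells, and the part of free RNA in these increases was not tested. Cdk6, Lyar, Ppp1r14b and BC035044 also rose, with log2 fold changes of 0.42, 0.67, 0.39 and 1.22.

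Dntt, the terminal transferase of lymphoid progenitors, was also called higher (3.08 ± 0.33), at 74.2 and 33.6 CPM against 8.89 and 3.36. In mouse 1 a single member held 52 of the 64 UMIs, and without it the level was 14.1 CPM. Ighv1-77, an immunoglobulin segment whose reads may be shared with related segments, rested on few molecules as well, with 9 of 11 UMIs in 1 member of mouse 1. Cells with 2 or more UMIs over Dntt and Ighm made up 17 of the 95 members, 16.7% in mouse 1 and 20.7% in mouse 2, against 9.60% and 3.45% of the matched reference cells.

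Among the genes that fell were a pair from the stem cell list and a platelet gene. Ltb, lymphotoxin beta, was at 244.5 and 248.4 CPM in members and at 372.5 and 403.5 CPM in reference cells (-0.63 ± 0.10, edgeR adjusted p = 6.92e-07). Apoe, apolipoprotein E, was at 70.7 and 30.2 CPM against 115.9 and 106.5 (-0.91 ± 0.18, adjusted p = 0.000230). Pf4, platelet factor 4, was at 51.0 and 60.4 CPM against 95.8 and 93.0 (-0.83 ± 0.19, adjusted p = 0.00920). All 3 were lower in both mice. Of the 22 stem cell genes tested, 2 fell (Ltb and Apoe), 0 rose and 3 had a log2 fold change above 0, with a list median of -0.28 against 0.00 over all genes. Hlf and Mecom, transcription factors of HSCs, did not pass, at -0.13 ± 0.08 and -0.40 ± 0.19.

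The multipotent progenitor list had 4 of 18 genes higher (Wfdc17, Plac8, Cd48 and Emb) and a median of 0.42. Flt3, the receptor that marks multipotent progenitors, was at 165.7 and 134.3 CPM against 128.3 and 143.5 and did not pass (0.26 ± 0.13, edgeR adjusted p = 0.746). Of 42 genes of G2 and M phase 3 fell (Ube2c, Ccnb2 and Cenpf), each on a few cells, and 18 of the 24 lists with a tested gene had no call. With 1 reference cell per member 23 genes were called, 14 of them lower, with Top2a, Hmgb2 and Mki67 among them. The lower calls thus moved with the choice of reference cells. Leaving out the deepest 5% gave 25 calls and no filter on low counts 21. Ccl5, a chemokine, was called lower, but a single reference cell held 45 of 64 UMIs in mouse 1 and another all 147 in mouse 2.

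**Figure D3:**
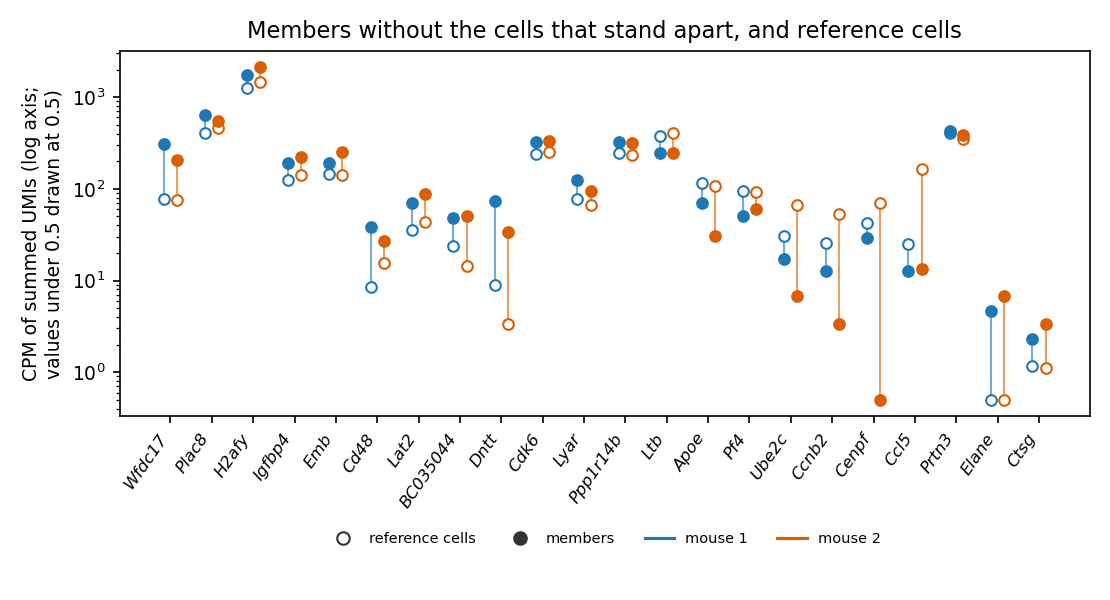
The y axis (log) gives CPM of summed UMIs for the 95 members without the cells that stand apart (filled) and their matched reference cells (open), in mouse 1 (blue) and mouse 2 (orange), with a line joining the classes of a mouse and values under 0.5 drawn at 0.5. Wfdc17, Plac8, H2afy and Cd48 lie higher in members of both mice, Ltb, Apoe and Pf4 lie lower, and Prtn3 is nearly level.

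These calls depended on the mouse block and also on the method, since DESeq2 likewise had the mouse in its model. Without the block, 2 of the 20 genes were called (Wfdc17 and Dntt), DESeq2 called 2 (Wfdc17 and H2afy), and fits without the members of mouse 1 or mouse 2 called 3 and 5 genes, not all of them among the 20. In those fits the member class is 1 sum that is assumed to vary like the reference sums. Of the 20 genes, Wfdc17 alone was called under each of these 4 settings.

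Cells that missed the rule by 1 molecule gave a second look in cells that were not used so far. ST-HSC cells with exactly 1 UMI of Mpo or Cebpa (371 and 166 within the same marker limits) were compared with 1113 and 498 matched cells with 0, none of them reference cells of the members, though all from the same libraries and mice. Of 11178 genes, 19 were higher (0.170%) and 12 lower (0.107%). Of the 20 genes called in the 95 members, 19 were tested, 18 had the same sign and 9 were called in the same direction, with smaller changes. The share with the same sign over all genes was not computed, so the count of same signs is not read as a result.

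Wfdc17 was at 222.8 and 253.2 CPM in the 1-UMI cells and at 105.5 and 200.5 CPM in the 0-UMI cells (0.80 ± 0.06, edgeR adjusted p = 1.11e-40), so the classes of mouse 2 lay much closer together than those of mouse 1. H2afy was at 1442 and 1630 CPM against 1193 and 1413 (0.25 ± 0.03), and Plac8 at 492.2 and 468.0 against 417.6 and 393.1 (0.24 ± 0.04). Dntt and BC035044 were also called higher and Apoe and Pf4 lower, in both mice. Cenpf and Ccnb2 were called lower, but only mouse 1 moved that way, with ratios of 0.551 and 0.486, while mouse 2 had 1.08 and 1.14. Cd48 (0.50 ± 0.23) and Ltb (-0.08 ± 0.04) did not pass.

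With more cells, further progenitor genes passed. Flt3 was at 159.4 and 192.0 CPM against 128.4 and 138.9 (0.36 ± 0.06, edgeR adjusted p = 1.02e-05). Ighm, Cd52, Satb1 and Dntt made 4 of the 12 lymphoid priming genes tested, and Wfdc17, Flt3, Plac8, Ccl3, Cd52 and Tespa1 made 6 of the 19 multipotent progenitor genes. Esam and Pdzk1ip1, which are used as HSC markers, fell together with Apoe, 3 of 29 stem cell genes tested. Of 12 genes of the azurophil granule list only Plac8 was called, and Prtn3 was at 0.09 ± 0.04 (edgeR adjusted p = 0.766). Without the block 0 genes were called (130 at an unadjusted p under 0.05), and DESeq2 called H2afy alone.

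**Figure D4:**
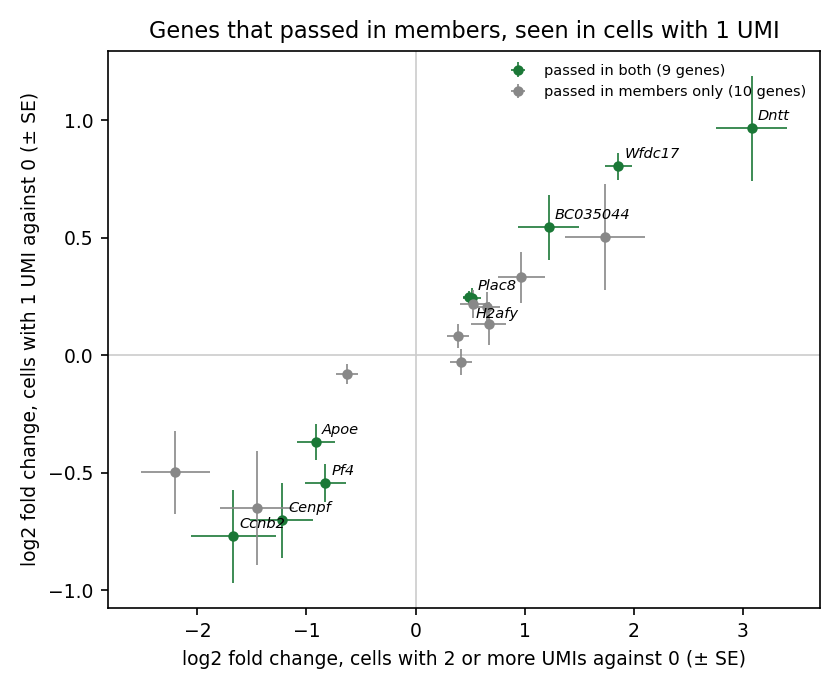
Each point is 1 of 19 genes called in the 95 members and tested in 1-UMI cells, with its log2 fold change against 0-UMI cells in members (x axis) and in 1-UMI cells (y axis); bars are standard errors and green marks the 9 genes called in both. All but Cdk6 (0.42 and -0.03) have the same sign on both axes, with smaller values on the y axis. The share with the same sign over all genes was not computed.

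Whether Mpo and Cebpa marked the same cells was tested by choosing cells on 1 gene and measuring the other. In cells with 2 or more Cebpa UMIs (31 and 18), Mpo was at 445.9 and 970.8 CPM against 5.46 and 3.64 CPM in matched cells without Cebpa, a log2 difference of 6.90 ± 0.27 (edgeR adjusted p = 2.90e-11; 2.72e-141 to 1.00 over the alternatives), in a fit where 1.14% of 6385 genes were higher. That difference lay in very few cells. Mpo had a UMI in 3 of 31 and 3 of 18 of these cells against 6 of 93 and 2 of 54, and the highest cell held 160 of 191 UMIs in mouse 1 and 161 of 191 in mouse 2.

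With the cells that stand apart left out by their other markers, Mpo was found in 2 of 29 and 1 of 15 Cebpa-chosen cells, 6.90% and 6.67%, and in 6.90% and 4.44% of matched cells. The level still differed by 3.46 ± 0.53 (edgeR adjusted p = 1.40e-07, with 0.246% of 5682 genes higher), but 1 cell held 28 of the 31 UMIs of mouse 1, and without the highest cell of each class and mouse the levels were 8.81 and 0 CPM against 4.71 and 2.37. DESeq2 did not call it (3.30, adjusted p = 1.00). In the reverse direction, Cebpa was at 57.3 and 78.5 CPM in cells with 2 or more Mpo UMIs (25 and 12) against 11.96 and 5.61 CPM, a difference of 2.72 ± 0.43 (edgeR adjusted p = 4.57e-08, with 1.45% of 6296 genes higher; DESeq2 adjusted p = 0.222). Here the share of cells was higher too, with Cebpa in 7 of 25 and 5 of 12 cells against 14 of 75 and 3 of 36. Without the cells that stand apart it was in 6 of 24 and 2 of 8 against 13 of 72 and 0 of 24, where 3 counts would be 12.5% of cells with a UMI, and with no filter on low counts the difference was 1.61 ± 0.66 and did not pass (edgeR adjusted p = 0.992).

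Members with Mpo alone and members with Cebpa alone differed from each other. Each Mpo-only cell was paired with the Cebpa-only cell nearest in depth, which gave 18 and 5 pairs. Of 2576 genes, 27 were higher in Mpo-only cells (1.05%) and 16 lower (0.621%), without the block 11 were called and by DESeq2 only Wfdc17. The Mpo-only cells remained deeper, with median totals of 13050.5 against 11928.5 UMIs and 16104 against 10620 UMIs, and 5 cells per class in mouse 2 is few.

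Wfdc17 had the smallest p between them. Over all such members it was at 39.1 and 14.3 CPM in Mpo-only cells, 749.6 and 396.1 CPM in Cebpa-only cells and 55.02 and 98.5 CPM in members with both genes, beside 76.9 and 76.2 CPM in reference cells. The excess of Wfdc17 in the members was thus found in the Cebpa-only cells, and in the paired cells the log2 difference was -3.85 ± 0.38 (edgeR adjusted p = 2.10e-20). Ccl3, a chemokine, was at 11.7 and 0 CPM in Mpo-only cells against 104.4 and 118.8 in Cebpa-only cells. Cd52, a leukocyte surface glycoprotein, was at 66.4 and 99.9 CPM against 199.2 and 245.6, and Cd74, the MHC class II invariant chain, at 43.0 and 85.6 CPM against 186.6 and 174.3. The CPM of these 3 are over all such members. They also passed in the paired cells, and for each the mice did not overlap between the classes.

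By edgeR, though not by DESeq2, Mpo-only members carried more RNA of some genes of dividing cells, and they were also the deeper cells. CPM here are over all such members, whereas tests used the paired cells. Stmn1, a microtubule regulator, was at 2102 and 2767 CPM in Mpo-only members against 1116 and 807.9 in Cebpa-only members. In the paired cells its log2 difference was 0.94 ± 0.13 (edgeR adjusted p = 1.49e-09). Hmgb2, a chromatin protein of cycling cells, was at 1004 and 1198 CPM against 373.2 and 396.1, Top2a, a topoisomerase, at 191.5 and 242.5 against 25.3 and 7.92, and Cdk6, a kinase of G1, at 441.5 and 485.0 against 183.4 and 205.9. All passed in the paired cells, and Mpo-only cells lay above Cebpa-only cells in both mice. Of 14 G2 and M phase genes tested 5 rose, and of 27 S phase genes 2. A single Mpo-only cell of mouse 1 held 63 of 75 Hist1h2ap UMIs, and near-identical histone genes may share 3′ reads, so this gene is uncertain. Per cell, the summed S phase list had a median of 2248 and 4844 CPM in Mpo-only cells and of 1140 and 1163 CPM in Cebpa-only cells.

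**Figure D5:**
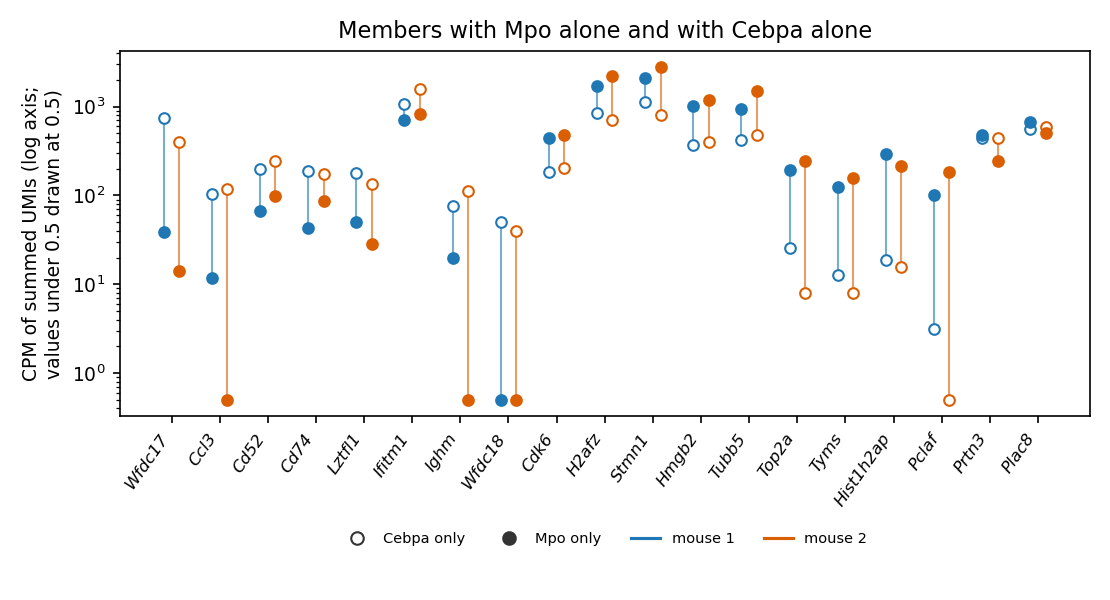
The y axis (log) gives CPM of summed UMIs over all Mpo-only members (filled; 18 and 5 cells) and all Cebpa-only members (open; 27 and 14 cells) without the cells that stand apart, in mouse 1 (blue) and mouse 2 (orange), with values under 0.5 drawn at 0.5. Wfdc17, Ccl3, Cd52, Cd74 and Ifitm1 lie higher in Cebpa-only cells and Cdk6, Stmn1, Hmgb2 and Top2a higher in Mpo-only cells of both mice.

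The same contrast was also made in cells with 1 UMI, which are not members. Among 108 and 52 pairs, 2 of 8377 genes were higher in Mpo cells (0.0239%) and 6 lower (0.0716%). Of the 43 genes called in members 26 had the same sign, and the share with the same sign over all genes was not computed, so this count is not read as a result. Of these 43, 3 were called again, namely Wfdc17 (-1.36 ± 0.13, edgeR adjusted p = 8.19e-05), Cd74 (-1.22 ± 0.20) and Cdk6 (0.70 ± 0.11). The genes of dividing cells were not, with Top2a at -0.05 ± 0.25, Hmgb2 at -0.01 ± 0.16 and Hist1h2ap at -0.43 ± 0.37. Plac8 (0.49 ± 0.09) was higher in Mpo cells, and Ly6a, the Sca1 gene of the sorting gate (-0.62 ± 0.11), Wfdc18 and Dntt were lower.

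Last, the members were set against 273 lymphoid-chosen ST-HSC cells (178 and 95), which had 2 or more UMIs over Dntt and Ighm and 0 of Mpo and Cebpa. Without depth matching 292 of 8318 genes were higher in members (3.51%) and 152 lower (1.83%), and without the block 7 were called. With 1 lymphoid-chosen cell per member matched in depth and without the cells that stand apart, 14 of 7047 genes were higher (0.199%) and 39 lower (0.553%), 7 without the block and 1 by DESeq2 (Hmgb2).

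Flt3 was at 165.7 and 134.3 CPM in the 95 members and at 295.4 and 352.3 CPM in all lymphoid-chosen cells, and in the matched cells it was lower in members by a log2 change of -1.02 ± 0.14 (edgeR adjusted p = 6.60e-05). Of 40 G2 and M phase genes tested 21 were lower, among them Ccnb2 and Cenpf, with a list median of -1.19 against 0.00 over all genes. Mcm6, a subunit of the replicative helicase, was at 184.3 and 268.6 CPM in members against 82.4 and 107.9 in all lymphoid-chosen cells and was higher by 0.83 ± 0.16 in the matched cells. Dach1, a transcriptional cofactor, was at 62.6 and 70.5 CPM against 27.8 and 19.1 in all lymphoid-chosen cells, and the difference in the matched cells was 1.36 ± 0.30. Prtn3 (0.16 ± 0.11), Plac8 (-0.05 ± 0.09) and Wfdc17 (-0.27 ± 0.17) did not pass, so these genes were not shown to differ between members and lymphoid-chosen cells of like depth.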

How the data were processed

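The authors deposited unnormalized UMI counts for each gene in each barcode, made with Cell Ranger 3.1.0 on mm10, per the submitters' processing notes; the matrix headers name version 3.0.2. The members and gene lists were chosen with earlier results of these data known. Each table listed 31053 genes, of which 30934 identifiers were found in GENCODE vM21. Counts were summed per library and cell class, giving 4 sums, and tested with edgeR 4.0.16 (TMM, filterByExpr, quasi-likelihood) in R 4.3.3, with DESeq2 1.42.0 as an alternative. The mouse was a block because both classes came from the same library and animal. With the block, the p-values do not measure the spread between the 2 animals. They set the class difference against how far it varied between them, a spread largely estimated from the other genes. CPM use the sum's total without the 4 rule genes, except those of Mpo and Cebpa in cells chosen on 1 gene, which use the full total. Fold changes use TMM scaling. No doublet caller was run; an alternative left out members among the deepest 5% of their library's cells, as possible doublets. In data simulated on the comparison of all members with reference cells (8553 genes), edgeR made 14 false calls. It called 79% of the genes with a log2 change of 1 and 99% of those with 2. These rates describe the simulated counts only. No other comparison was simulated, including that without the cells that stand apart. Whether the rates hold for genes with most UMIs in a single cell, as Elane and Dntt in mouse 1, was not tested. Named genes were the markers, the 10 largest changes in each direction at 20 CPM or more with both mice alike, and up to 3 per list at 5 CPM or more; other genes named were chosen after their values were seen. Intervals are exact binomial (Clopper-Pearson) and cover counting error only.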

Additional observations from a re-analysis of the deposited data

How the results depend on the processing

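There are 2 mice, and counts of called genes moved with most choices. Against 126 genes called over all members, no replicate block gave 39, DESeq2 25, 1 reference cell per member 66 and all reference cells without depth matching 676. Thinning to 5000 UMIs gave 36 and 3 or more Mpo and Cebpa UMIs 212. Leaving out granule-rich members gave 18, lineage-marked cells 40 and members among the deepest 5% of their library 32. Leaving out the cells that stand apart, and reference cells by the same limits, gave 20. These are the marked cells below, a choice made after seeing the data like those that follow. They are not the lineage-marked cells, which had 3 or more UMIs over a different marker list and whose removal left 56 and 23 members. Leaving out the members of 1 mouse gave 26 to 57. For the 95 members, against 20, no replicate block gave 2, DESeq2 2, thinning 6 and 1 mouse left out 3 to 5. For 1-UMI cells, against 31, these were 0, 1 and (1 mouse left out) 4 to 6. For Mpo-only against Cebpa-only members, against 43, no replicate block gave 11, DESeq2 1, no filter 28, no depth matching 89 and 1 mouse left out 12 to 14; in 1-UMI cells, against 8, the values were 1, 1, 23, 61 and 2 to 6. Against lymphoid-chosen cells, 444 became 7 without the replicate block, 26 with DESeq2, 84 to 117 with 1 mouse left out, 245 without marked cells and 53 when also matched in depth. Mpo in Cebpa-chosen cells missed the threshold without marked cells in DESeq2 (3.30), and Cebpa in Mpo-chosen cells in DESeq2 (2.97) and without marked cells and filter (1.61). Shares became 0.819% and 0.818% (ST-HSC mouse 1 and 2) and 0 (LT-HSC mouse 2) after thinning, and 0.608%, 0.644% and 0 with 3 or more UMIs. Log2 changes of named genes that reversed, where either value passed the test, were C1qtnf12 (0.0077 against all reference cells, 0.19 without granule-rich members, 0.048 without the deepest 5%, 0.19 without marked cells), Sec61b (-0.018, -0.057 and -0.017 under the last 3), Sdf2l1 (-0.24) and Blvrb (0.076) without the deepest 5%, Mki67 (0.95) against all reference cells, Ube2c (-1.45) without marked cells and Cenpf (1.45) with 3 or more UMIs. The cause of these moves was not tested. Of 77 named genes, 50 kept direction and call without the replicate block and 27 lost the call, and with DESeq2 43 and 34.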
